A study of Mus musculus with 40 samples.

Results

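Mouse lung organoids grown in a condition labelled ALL were compared with organoids in a condition labelled 2C. Each condition is 1 library, so the comparison rests on 2 of the 40 libraries of the series. The same table holds 2C+F10, 2C+MTG and 2C+VC (1 library each), and a second table holds 2 further libraries named ALL with replicate numbers 1 and 2. The labels describe cultures of lung epithelium started from primary tip epithelial cells, and the tissue field of the libraries named here reads lung organoids. They do not define ALL, 2C, F10, MTG or VC. ALL is read here as the complete medium, 2C as the base medium and a plus sign as 1 addition to the base, which is an assumption. The cell type field carries the words ALL-factor for the ALL libraries and 2C for the other 4. The labels used here give no strain, age, start stage or days of culture for these libraries, and no genotype or treatment besides the medium name. Messenger RNA abundance was given as TPM, each gene's share of the transcripts in a library after correction for transcript length, so levels can be compared between genes.

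In the lung, alveolar type 2 cells make and store surfactant, the lipid and protein film that keeps air spaces open, and alveolar type 1 cells form the thin gas-exchange surface. Club and ciliated cells line the conducting airways. Alveolar and airway epithelium both arise in the embryo. Distal tip progenitors of the embryonic lung express Sox9 and Id2 and depend on fibroblast growth factor signalling from the surrounding mesenchyme.

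In ALL, transcripts of surfactant proteins, of several alveolar type 1 genes and of MHC class II antigen presentation stood above 2C. So did 6 genes of a mixed list of distal tip and proximal progenitor genes. Transcripts of ciliated cells, of the club cell genes Cyp2f2 and Scgb3a2, of Notch ligands and of the growth genes Igf2 and H19 stood below. The largest difference in a protein-coding gene was 7.24 on the log2 scale, in Cd74. Values are differences of log2(TPM + 1), ALL minus 2C, a scale that understates changes of low genes. A gene was counted as changed when it differed by 1 or more with at least 5 TPM in the higher library. Of 10916 genes at that level, 534 (4.89%) were higher in ALL than in 2C and 812 (7.44%) were lower, which is 12.3% in either direction. With 1 library a condition there is no test, no error and no p-value, and the counts describe these libraries. Near the limit, 197 genes lay within 0.1 above it and 267 within 0.1 below it.

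Libraries that share the name ALL differed from each other about as often. The count was 1264 genes (11.8%) between the numbered libraries 1 and 2, 1436 (13.1%) between the unnumbered ALL and number 1, and 1499 (14.1%) between the unnumbered ALL and number 2, the last pair of counts being across tables. The share of genes counted in ALL against 2C lay inside that range, so the number of changed genes is no more than libraries of 1 name show among themselves. The median gene was 0.24 lower in ALL, and mitochondrial transcripts took 7.36% of TPM in ALL, 8.70 to 11.97% with a single addition and 10.41% in 2C. Sftpc alone took 10.18% in ALL, 2.44 to 6.69% with a single addition and 2.5% in 2C. Rescaling by the median ratio moved the median by 0.27 to 0.039, and the share of counted genes that were higher in ALL went with it, at 61.6% after rescaling and 39.7% as deposited. Medians of gene groups are therefore given also relative to the median of all genes. The shares of 4.89% higher and 7.44% lower over all genes are the background for the count in each group. For groups with 3 or more measured members and a counted gene, own shares are given over the measured members. The libraries also differed in sex-linked transcripts. ALL, 2C+F10 and 2C carried Xist at 212, 277 and 446 TPM with Eif2s3y at 0, and 2C+MTG and 2C+VC carried the Y-linked Eif2s3y at 83.3 and 85.1 TPM with Xist below 1. The numbered ALL libraries differed from each other too. Number 1 had Eif2s3y at 74.45 TPM and Xist at 6.04 TPM, and number 2 had Eif2s3y at 0.22 TPM and Xist at 146.75 TPM. ALL and 2C both carried Xist with Eif2s3y at 0, but Xist was counted as lower in ALL, at a difference of -1.07. After rescaling Xist no longer reached the limit. The part of these patterns in the differences from the single additions, and in the counts between libraries named ALL, was not tested. Fewer cells of a type and less RNA per cell cannot be told apart in such whole-culture libraries.

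**Figure D1:**
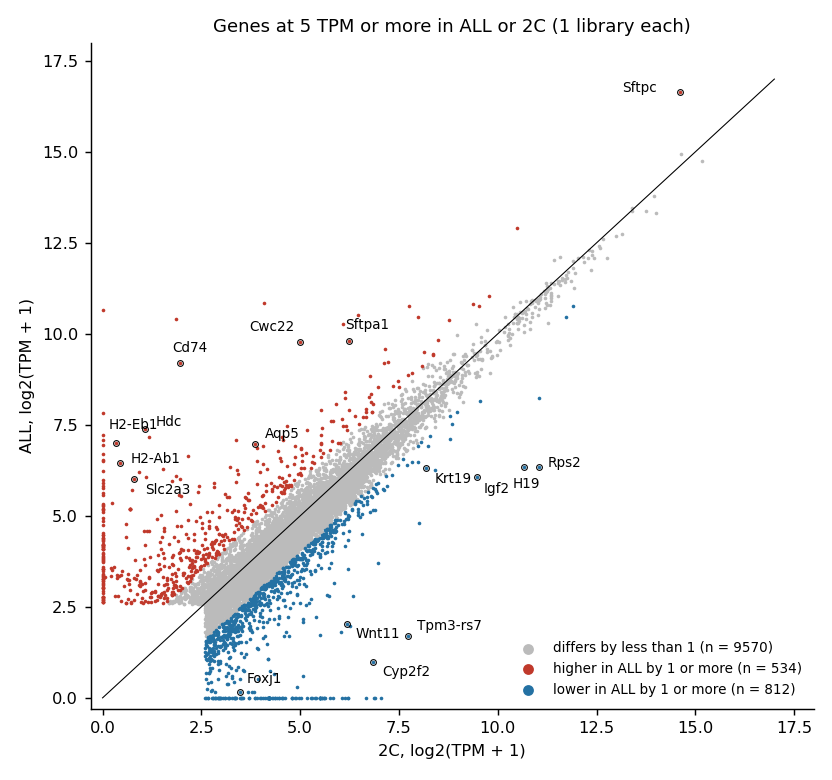
Level of each gene in ALL (vertical axis) and in 2C (horizontal axis) as log2(TPM + 1), 1 library each, for genes at 5 TPM or more in either. Points above the line are higher in ALL. The 534 genes higher by 1 or more are red, the 812 lower are blue, and Cd74 at 586 TPM in ALL and 2.87 TPM in 2C stands far from the line.

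Genes for presenting antigen on MHC class II, the molecules that display peptides taken up from outside the cell, held 4 of the 12 largest differences above 2C once predicted genes, clone names and pseudogenes named Rps or Rpl with a number were left out. The sequences just before the start of 3 class II genes are shown because these genes were higher together and class II promoters are known for a pair of shared elements, the X box and the Y box. Each is the 150 bases before the annotated start, from RefSeq on GRCm38.p6, written 5' to 3' on the gene's strand. Capitals mark the Y box, GATTGG or its reverse complement CCAATC, and a core of the X box, ACTGATG, both searched on either strand and not overlapping each other. The windows are chr17:34287824-34287973 on the minus strand for H2-Aa, chr17:34305717-34305866 on the plus strand for H2-Eb1 and chr17:34153041-34153190 on the plus strand for H2-DMb1.
H2-Aa: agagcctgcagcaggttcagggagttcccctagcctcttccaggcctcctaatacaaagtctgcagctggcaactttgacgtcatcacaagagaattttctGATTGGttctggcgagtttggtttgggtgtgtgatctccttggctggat
H2-Eb1: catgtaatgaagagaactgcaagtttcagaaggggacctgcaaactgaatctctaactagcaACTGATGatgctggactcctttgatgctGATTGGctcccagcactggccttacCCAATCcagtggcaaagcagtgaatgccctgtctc
H2-DMb1: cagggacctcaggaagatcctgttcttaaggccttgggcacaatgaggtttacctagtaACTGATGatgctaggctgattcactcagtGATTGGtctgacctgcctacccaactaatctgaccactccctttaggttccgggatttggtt
The X box core stood 88 bases before the start in H2-Eb1 and 91 bases before it in H2-DMb1, and the Y box GATTGG stood 60 and 62 bases before it. In H2-Aa a Y box stood at 49 bases and the letters ACTGATG were not in the window. Other forms of the X box were not searched, so an X box in H2-Aa is not excluded. Among 32851 windows of the same length GATTGG was found in 10.9% and the X box core in 1.57%, which is 517 windows. Windows of 4 of 6 class II genes were searched. Those of H2-DMa, which was also higher in ALL, held neither motif and are not shown. Cd74 and H2-Ab1 were not among the genes searched. The search therefore leaves out Cd74, the protein-coding gene with the largest difference, and does not describe all class II genes that were higher. A match of letters is a description of the sequence and not a binding site shown here.

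Cd74, the invariant chain that guides class II molecules to the peptide-loading compartment, had 586 TPM in ALL, 6.18 in 2C+F10, 108 in 2C+MTG, 89.3 in 2C+VC and 2.87 in 2C. The ALL library was highest, 2C+MTG and 2C+VC were in between, and 2C+F10 and 2C were near the bottom, with a difference of 7.24 between ALL and 2C. The numbered ALL libraries, in the other table, had 2302 and 2599.8 TPM. The class II chain genes lie together on chromosome 17, with H2-Ab1 at chr17:34257689-34269419, H2-Aa at chr17:34282744-34287823 and H2-Eb1 at chr17:34305867-34316674 (GRCm38). H2-Aa, an alpha chain of the class II dimer, had 142 TPM in ALL, 0.21 in 2C+F10, 25.4 in 2C+MTG, 11.6 in 2C+VC and 1.25 in 2C. Its partner beta chain H2-Ab1 had 86.5 TPM in ALL, 0.62 in 2C+F10, 6.82 in 2C+MTG, 5.74 in 2C+VC and 0.36 in 2C, and the beta chain H2-Eb1 had 126 TPM in ALL, 0.65 in 2C+F10, 8.20 in 2C+MTG, 2.46 in 2C+VC and 0.27 in 2C. These 3 chain genes followed the same order of libraries at the ends, with ALL highest and 2C+F10 and 2C below 2 TPM, and differed by 5.99, 6.01 and 6.65 between ALL and 2C. In the numbered ALL libraries they were at 665 and 762 TPM for H2-Aa, 406 and 438 TPM for H2-Ab1 and 134 and 168 TPM for H2-Eb1.

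The genes of the peptide-loading step were higher in ALL by less. H2-DMb1, a chain of the H2-DM complex that exchanges peptides on class II molecules, had 31.4 TPM in ALL, 1.58 in 2C+F10, 10.51 in 2C+MTG, 10.3 in 2C+VC and 1.79 in 2C, a difference of 3.54. H2-DMa, the other chain, had 30.4 TPM in ALL, 6.25 in 2C+F10, 19.9 in 2C+MTG, 12.1 in 2C+VC and 6.72 in 2C, a difference of 2.02. Ciita, the transcriptional coactivator that controls class II genes, stayed under 5 TPM with 3.43 TPM in ALL, 0.1 in 2C+F10, 1.66 in 2C+MTG, 1.10 in 2C+VC and 0.62 in 2C. The class I heavy chain genes H2-K1 and H2-D1 differed by 1.33 and 1.19, with 278 TPM in ALL and 109.6 in 2C for H2-K1 and 71.6 TPM in ALL and 30.8 in 2C for H2-D1. B2m, the light chain of class I, had 166 TPM in ALL and 215 in 2C, a difference of -0.37 that was not counted.

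Over the list of 15 MHC class I and II genes, 11 were measured at 5 TPM or more, 8 were higher in ALL (72.7%) and 0 lower, against the 4.89% and 7.44% of all genes. The median difference was 2.02, or 2.26 above the median gene. 2C+VC gave 7 of the 8, 2C+MTG gave 6 and 2C+F10 gave 0. Leukocytes also express class II genes. The 10 leukocyte markers summed to 2.20 TPM in ALL and 2.74 TPM in 2C with no marker at 5 TPM, and Ptprc, Tyrobp and Cd3e were listed at 0 in both libraries. The part of such cells in the class II levels was not tested. None of 17 interferon response genes was counted, with 5 measured and a median of -0.26, or -0.02 relative to the median gene. Several of them were far higher in the numbered ALL libraries, where Bst2, a membrane antiviral protein, stood at 172 and 62.5 TPM, against 7.14 TPM in the unnumbered ALL library and 9.21 TPM in 2C.

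Surfactant and alveolar type 2 genes were higher in ALL as a group. All 20 listed were measured, 13 were higher (65%), 1 was lower (5%) and 6 were not counted, and the median was 1.52, or 1.76 above the median gene. Sftpc (chr14:70520949-70524081), the surfactant protein C precursor and the most abundant transcript of ALL among these genes, had 101689 TPM in ALL, 24321 in 2C+F10, 40216 in 2C+MTG, 66781 in 2C+VC and 24913 in 2C. It was highest in ALL and lowest in 2C+F10 and 2C, which lay close together, and differed by 2.03. Sftpb, surfactant protein B, had 7701 TPM in ALL, 3422 in 2C+F10, 3618 in 2C+MTG, 5512 in 2C+VC and 1430.2 in 2C, so that each single addition stood between ALL and 2C, with a difference of 2.43. The collectin Sftpa1 had 886 TPM in ALL, 208 in 2C+F10, 59.6 in 2C+MTG, 902 in 2C+VC and 74.0 in 2C, where ALL and 2C+VC were level and 2C+MTG was below 2C. Its difference was 3.56. Chil1, a chitinase-like secreted protein, had 98.2 TPM in ALL, 8.75 in 2C+F10, 1.61 in 2C+MTG, 416 in 2C+VC and 3.46 in 2C, a difference of 4.48, with 2C+VC above ALL.

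The lipid side of surfactant moved less than Sftpc, Sftpb and Sftpa1. Another surfactant protein, Sftpd, had 97.3 TPM in ALL, 182 in 2C+F10, 12.9 in 2C+MTG, 386 in 2C+VC and 28.5 in 2C. Its difference of 1.74 was near that of the lipid gene Abca3, and the numbered ALL libraries had Sftpd at 1319 and 1674 TPM. Abca3, the transporter that loads lipid into lamellar bodies, had 374 TPM in ALL, 173 in 2C+F10, 148 in 2C+MTG, 363 in 2C+VC and 123 in 2C, a difference of 1.59. Scd1, a fatty acid desaturase, had 2122 TPM in ALL, 1917 in 2C+F10, 766 in 2C+MTG, 5637 in 2C+VC and 874 in 2C, a difference of 1.28, and here too 2C+VC exceeded ALL. Lpcat1, an acyltransferase of surfactant phospholipid, and Lamp3, a lamellar body membrane protein, were higher by 0.94 and 0.76, short of the limit. Cebpa, a transcription factor needed for type 2 maturation, had 195 TPM in ALL, 86.8 in 2C+F10, 66.8 in 2C+MTG, 140.1 in 2C+VC and 55.9 in 2C, a difference of 1.78.

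Lyz2, a lysozyme of mature type 2 cells, went the other way, with 7.05 TPM in ALL, 86.6 in 2C+F10, 0.82 in 2C+MTG, 105 in 2C+VC and 15.1 in 2C and a difference of -1.002, just past the limit. Its close paralog Lyz1 had 194 TPM in ALL, 151 in 2C+F10, 193 in 2C+MTG, 379.8 in 2C+VC and 54.3 in 2C, a difference of 1.81. The split of reads between these near-identical genes is uncertain. The numbered ALL libraries were well above both, at 200.5 and 309 TPM for Lyz2 and 1201 and 3114 TPM for Lyz1. Of the 13 higher type 2 genes 2C+VC gave 13, 2C+F10 gave 9 and 2C+MTG gave 2.

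**Figure D2:**
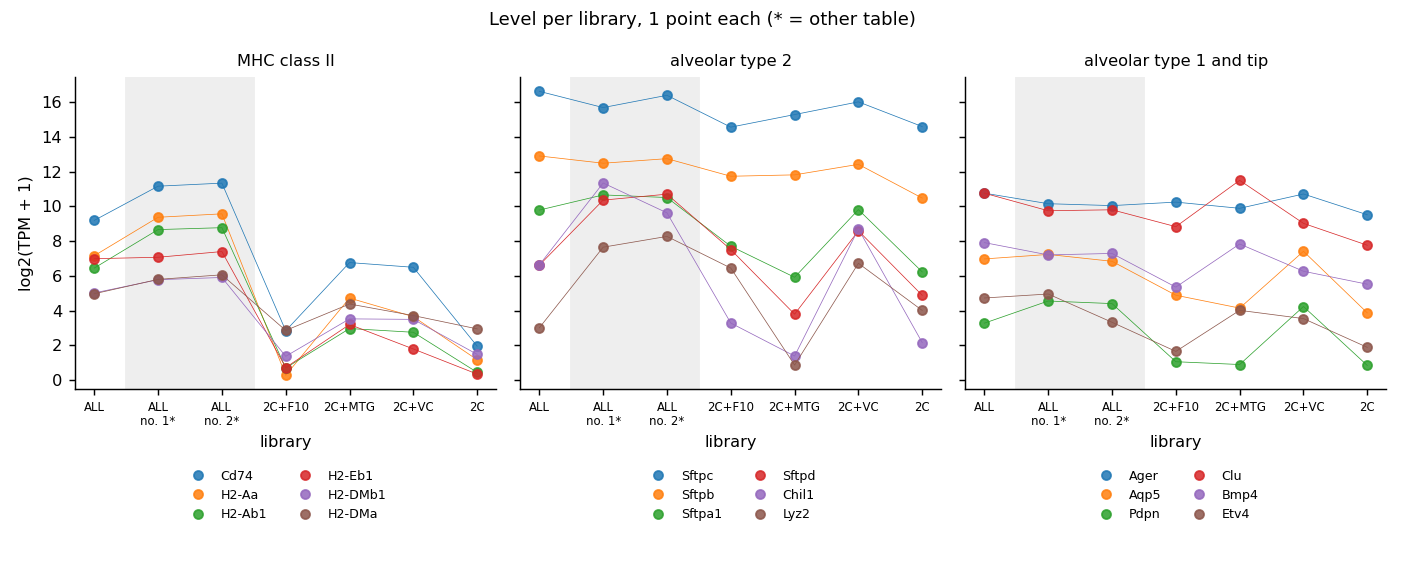
Level of genes higher in ALL than in 2C, as log2(TPM + 1), 1 point per library, with the numbered ALL libraries of the other table shaded and thin lines joining the points of a gene. Class II genes are highest in the ALL libraries and lowest in 2C+F10 and 2C, Sftpc and Sftpb lead the type 2 genes, and Lyz2 is the exception at 7.05 TPM in ALL and 15.1 TPM in 2C.

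Secreted defence genes shared with mature type 2 cells were also higher. Saa3, an acute phase apolipoprotein, had 20.4 TPM in ALL, 7.14 in 2C+F10, 0.83 in 2C+MTG, 48.0 in 2C+VC and 0.51 in 2C, a difference of 3.82. Slpi, a protease inhibitor of airway fluid, had 20.9 TPM in ALL, 7.18 in 2C+F10, 9.38 in 2C+MTG, 61.0 in 2C+VC and 7.29 in 2C, and Lcn2, which binds bacterial iron carriers, had 25.8 TPM in ALL, 38.7 in 2C+F10, 3.96 in 2C+MTG, 188 in 2C+VC and 9.41 in 2C. In each of these 3 genes 2C+VC was the highest of the 5 libraries, and 2C+MTG was low in Saa3 and Lcn2. The numbered ALL libraries were far above that range for Lcn2, at 3699.6 and 5707 TPM. Of 16 mucosal defence genes 6 were measured, 4 were higher in ALL (66.7%) and 1, Lyz2, was lower (16.7%). The chemokine Cxcl15, made by lung epithelium, had 1328 TPM in ALL, 943 in 2C+F10, 191 in 2C+MTG, 2909 in 2C+VC and 432 in 2C, a difference of 1.62, and the neutrophil attractant Cxcl1 differed by 1.55. Il33, an alarmin cytokine, was lower by a difference of -1.11, with 6.94 TPM in ALL, 14.9 in 2C+F10, 1.60 in 2C+MTG, 55.7 in 2C+VC and 16.2 in 2C, and after median-ratio rescaling it no longer reached the limit. Il33 was above 2C in the numbered ALL libraries, at 52.3 and 75.8 TPM. The chemokine list, which holds Cxcl15, Cxcl1 and Il33, had 2 genes higher (50%) and 1 lower (25%) of 4 measured.

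Alveolar type 1 genes split. Of 20 listed, 19 were measured, 7 were higher in ALL (36.8%), 1 was lower (5.26%) and 11 were not counted, with a median of 0.47, or 0.71 above the median gene. Aqp5, a water channel, had 125 TPM in ALL, 28.6 in 2C+F10, 16.7 in 2C+MTG, 170.1 in 2C+VC and 13.6 in 2C, a difference of 3.11. Spock2, a matrix proteoglycan, had 10.1 TPM in ALL, 0.64 in 2C+F10, 1.10 in 2C+MTG, 15.7 in 2C+VC and 0.4 in 2C, and the membrane glycoprotein Pdpn had 8.70 TPM in ALL, 1.08 in 2C+F10, 0.86 in 2C+MTG, 17.9 in 2C+VC and 0.79 in 2C. In these 3 genes 2C was the lowest library, and 2C+VC stood above ALL. Ager, the receptor RAGE that marks type 1 cells, had 1742 TPM in ALL, 1218 in 2C+F10, 951 in 2C+MTG, 1685 in 2C+VC and 735 in 2C, a difference of 1.24. The cofactor Hopx and the caveolar protein Cav1 differed by 0.47 and 0.54 and were not counted. Clic5, an actin-linked chloride channel protein, was lower in ALL, with 10.7 TPM in ALL, 82.3 in 2C+F10, 7.59 in 2C+MTG, 111 in 2C+VC and 73.7 in 2C and a difference of -2.68. ALL and 2C+MTG were low in Clic5, and 2C+F10, 2C+VC and 2C were high. 2C+VC gave the 7 higher type 1 genes, 2C+F10 gave 3 of them and 2C+MTG gave 0.

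Ion and water transport genes had 12 of 18 measured, 4 higher in ALL (33.3%) and 0 lower, with a median of 0.46, or 0.70 above the median gene. Slc26a9, an epithelial chloride transporter, had 89.2 TPM in ALL, 20.7 in 2C+F10, 39.0 in 2C+MTG, 72.5 in 2C+VC and 14.0 in 2C, a difference of 2.59. Scnn1a, a subunit of the epithelial sodium channel that clears airspace fluid, had 104 TPM in ALL, 96.4 in 2C+F10, 8.28 in 2C+MTG, 167 in 2C+VC and 34.5 in 2C, a difference of 1.57. ALL, 2C+F10 and 2C+VC were high in Scnn1a and 2C+MTG was far below 2C. The other channel subunits Scnn1b and Scnn1g differed by 0.45 and 0.26. The water channel Aqp1 had 36.0 TPM in ALL, 28.6 in 2C+F10, 57.4 in 2C+MTG, 38.3 in 2C+VC and 11.2 in 2C, where 2C was the lowest of the 5 libraries. Scnn1a was at 42.6 and 35.7 TPM and Aqp1 at 19.3 and 10.9 TPM in the numbered ALL libraries, and number 2 was close to 2C in both genes.

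In the list of distal tip and proximal progenitor genes, 6 of 11 measured were higher in ALL (54.5%) and 0 lower, of 14 listed, with a median of 1.01, or 1.25 above the median gene. Sox9, the transcription factor of the distal tip, had 25.2 TPM in ALL, 4.24 in 2C+F10, 19.8 in 2C+MTG, 11.9 in 2C+VC and 10.4 in 2C, a difference of 1.20. Id2, an inhibitor of helix-loop-helix factors in the tip, had 598 TPM in ALL, 108 in 2C+F10, 508 in 2C+MTG, 288 in 2C+VC and 147 in 2C, a difference of 2.01. Both were highest in ALL, next in 2C+MTG, and lowest in 2C+F10. Etv4, an ETS factor induced by FGF signalling, had 25.5 TPM in ALL, 2.14 in 2C+F10, 15.2 in 2C+MTG, 10.6 in 2C+VC and 2.69 in 2C, a difference of 2.84, and its relative Etv5 had 223 TPM in ALL, 99.8 in 2C+F10, 181 in 2C+MTG, 169 in 2C+VC and 158 in 2C, which was not counted. Bmp4, a morphogen of the tip, had 241 TPM in ALL, 39.9 in 2C+F10, 228 in 2C+MTG, 76.1 in 2C+VC and 44.9 in 2C, a difference of 2.40, with ALL and 2C+MTG highest. Clu, a secreted chaperone, had 1739 TPM in ALL, 456 in 2C+F10, 2908 in 2C+MTG, 521 in 2C+VC and 217 in 2C, a difference of 3.00, with 2C+MTG above ALL. Sox2, the factor of the proximal airway, was under 5 TPM, with 0 TPM in ALL, 4.70 in 2C+F10, 0 in 2C+MTG, 2.14 in 2C+VC and 3.53 in 2C. Hmga2, also a member of the LIN28 and oncofetal list, had 8.32 TPM in ALL, 1.44 in 2C+F10, 11.7 in 2C+MTG, 5.08 in 2C+VC and 3.62 in 2C. Its difference was 1.01, just past the limit, and the numbered ALL libraries, at 1.96 and 3.62 TPM, were not above 2C. The LIN28 and oncofetal list had 1 gene higher (20%) and 2 lower (40%) of 5 measured. The 6 higher genes were given by 2C+MTG in 5 cases, by 2C+VC in 2 and by 2C+F10 in 1. Sox9 was given by no addition and stood closest to the limit in 2C+MTG, at 0.86.

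Genes that report FGF signalling were partly higher. Of 19 listed 14 were measured, 5 were higher (35.7%) and 2 lower (14.3%), with a median of 0.70, or 0.94 above the median gene. Among the receptors, Fgfr4 had 14.1 TPM in ALL, 1.69 in 2C+F10, 8.80 in 2C+MTG, 2.22 in 2C+VC and 2.42 in 2C, a difference of 2.14, and Fgfr3 had 21.5 TPM in ALL, 89.6 in 2C+F10, 41.5 in 2C+MTG, 46.1 in 2C+VC and 93.0 in 2C, a difference of -2.06. Fgfr2, the main receptor of the lung epithelium for FGF10, differed by 0.36, with 308 TPM in ALL, 239 in 2C+F10, 245 in 2C+MTG, 334 in 2C+VC and 239.8 in 2C. Fgfr4 was thus high in ALL and 2C+MTG, and Fgfr3 was lowest in ALL. Fgfr4 lay on either side of 2C in the numbered ALL libraries, at 6.44 and 1.47 TPM. Among the feedback inhibitors, the phosphatase Dusp4 had 21.6 TPM in ALL, 3.05 in 2C+F10, 5.91 in 2C+MTG, 16.0 in 2C+VC and 3.98 in 2C, a difference of 2.18, with ALL and 2C+VC high. Dusp6 and Spry1 were higher by 1.03 and 1.16, and Spry2 by 0.91, which is short of the limit.

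In the BMP and TGF-beta list, 17 of 22 genes were measured, 4 were higher (23.5%) and 3 lower (17.6%), with a median of 0.39, or 0.63 above the median gene. Beside the ligand Bmp4, the higher genes were the BMP targets Id1, Id2 and Id3. Id1 had 306 TPM in ALL, 93.3 in 2C+F10, 207 in 2C+MTG, 166 in 2C+VC and 107 in 2C, a difference of 1.51. Id3 had 230.4 TPM in ALL, 79.6 in 2C+F10, 131 in 2C+MTG, 117 in 2C+VC and 112 in 2C, a difference of 1.03. Each was highest in ALL and lowest in 2C+F10 among the 5 libraries. In the numbered ALL libraries Id3 was at 117 and 91.9 TPM, on either side of 2C. The lower genes were the ligands Bmp2 and Tgfb2 and the receptor Bmpr1b, at differences of -1.55, -1.03 and -1.74. Bmp2 had 1.38 TPM in ALL, 7.69 in 2C+F10, 1.39 in 2C+MTG, 4.85 in 2C+VC and 5.98 in 2C, with ALL and 2C+MTG low.

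Ciliated cell genes were lower in ALL. Of 14 listed 7 were measured, 6 were lower (85.7%) and 0 higher, with a median of -2.60, or -2.36 relative to the median gene. Foxj1 (chr11:116330704-116335399), the master transcription factor of motile cilia, had 0.12 TPM in ALL, 19.6 in 2C+F10, 0 in 2C+MTG, 13.7 in 2C+VC and 10.1 in 2C, a difference of -3.30. Rsph1, a radial spoke protein of the axoneme, had 0.42 TPM in ALL, 21.8 in 2C+F10, 0.72 in 2C+MTG, 17.6 in 2C+VC and 14.4 in 2C, a difference of -3.44. Cfap126, which takes part in ciliary base docking, had 0.35 TPM in ALL, 17.2 in 2C+F10, 0 in 2C+MTG, 24.7 in 2C+VC and 9.05 in 2C. ALL and 2C+MTG were below 1 TPM in these 3 genes, and 2C+F10, 2C+VC and 2C were all above 9. Ccno, a cyclin of centriole amplification, had 4.81 TPM in ALL, 41.3 in 2C+F10, 3.18 in 2C+MTG, 9.73 in 2C+VC and 34.3 in 2C, a difference of -2.60, with 2C+VC also low. Tppp3, a tubulin polymerization protein found in ciliated and other cells, was not counted, at a difference of 0.72. 2C+MTG gave 6 of the 6 lower genes, 2C+VC gave 1 and 2C+F10 gave 0. Lrrc23, another radial spoke gene, was among the largest differences, with 0.22 TPM in ALL, 57.2 in 2C+F10, 0 in 2C+MTG, 28.7 in 2C+VC and 29.1 in 2C and a difference of -4.62. The numbered ALL libraries had Foxj1 at 0.15 and 0 TPM and Lrrc23 at 0 and 0.29 TPM.

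Club cell genes gave 3 lower (42.9%) and 0 higher of 7 measured and 12 listed. Their median was -0.25, near the -0.24 of all genes, and it turns to 0.04 after rescaling, a change of sign. Cyp2f2, a cytochrome P450 of club cells, had 0.98 TPM in ALL, 326 in 2C+F10, 3.24 in 2C+MTG, 179 in 2C+VC and 115 in 2C, a difference of -5.87. Scgb3a2, a secretoglobin, was listed at 0 in ALL and in 2C+MTG, with 49.0 TPM in 2C+F10, 292 TPM in 2C+VC and 10.4 TPM in 2C. Scgb1a1, the main club cell secretion, had 7.62 TPM in ALL, 371 in 2C+F10, 0.53 in 2C+MTG, 4156 in 2C+VC and 19.0 in 2C, a difference of -1.21 that no longer reached the limit after rescaling. All 3 were low in ALL and 2C+MTG, and Scgb1a1 and Scgb3a2 were highest in 2C+VC. Cbr2, a carbonyl reductase of the same cells, was not counted between ALL and 2C, with 100.2 TPM in ALL, 383 in 2C+F10, 12.3 in 2C+MTG, 782 in 2C+VC and 74.6 in 2C. In the numbered ALL libraries Cyp2f2 stood at 11.4 and 4.26 TPM and Scgb1a1 at 12.53 and 4.10 TPM. 2C+MTG gave the 3 lower genes and the other additions gave 0 of them.

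**Figure D3:**
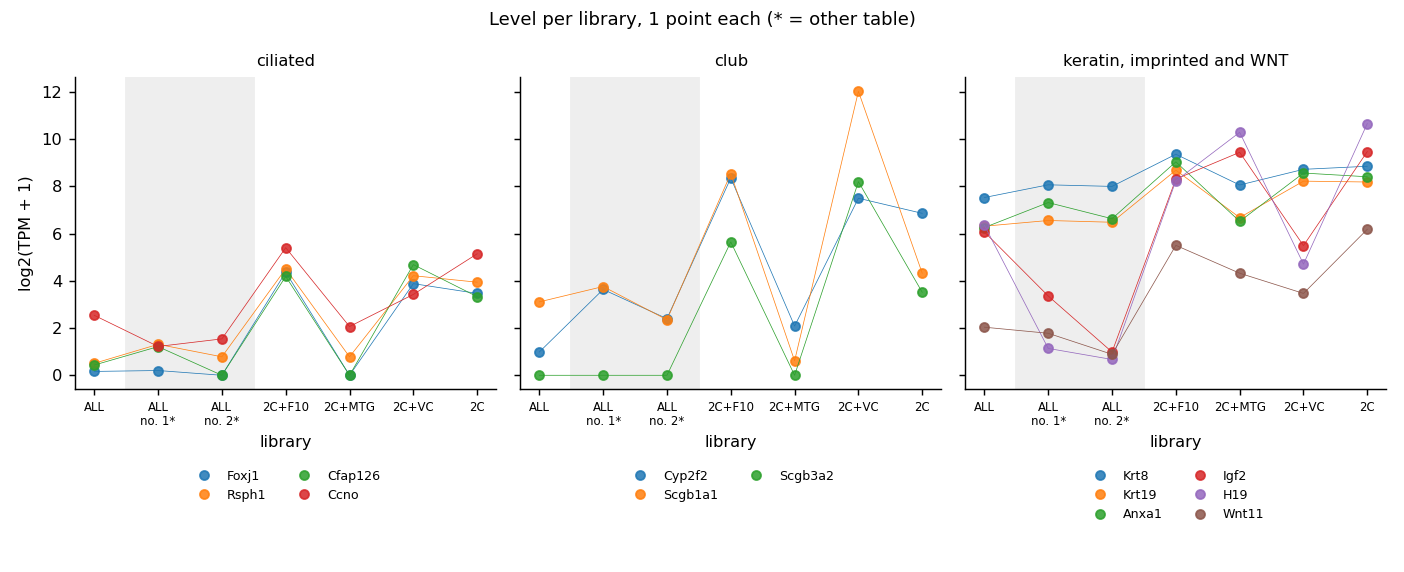
Level of genes lower in ALL than in 2C, as log2(TPM + 1), 1 point per library, with the numbered ALL libraries of the other table shaded and thin lines joining the points of a gene. Ciliated and club genes are lower in ALL and 2C+MTG than in the other 3 libraries of the table, while Igf2 and H19 are low in ALL and 2C+VC and high in 2C+MTG and 2C.

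Igf2, a fetal growth factor, and H19, the imprinted noncoding RNA next to it, were lower in ALL. H19 (chr7:142575529-142578143) had 80.6 TPM in ALL, 299.6 in 2C+F10, 1248 in 2C+MTG, 25.1 in 2C+VC and 1616 in 2C, a difference of -4.31. Igf2 (chr7:142650766-142666816) had 66.1 TPM in ALL, 316 in 2C+F10, 693 in 2C+MTG, 44.0 in 2C+VC and 709 in 2C, a difference of -3.40. For both, ALL and 2C+VC were low, 2C+F10 was in between, and 2C+MTG and 2C were high. The numbered ALL libraries were lower still, at 1.20 and 0.59 TPM for H19 and 9.25 and 0.98 TPM for Igf2. Of 14 imprinted growth genes 11 were measured, 4 were lower (36.4%) and 0 higher, with a median of -0.49, or -0.25 relative to the median gene. The other lower ones were Plagl1, a zinc finger factor of the imprinted network, at 14.7 TPM in ALL and 42.9 in 2C, and the cell cycle inhibitor Cdkn1c at 92.7 TPM in ALL and 193 in 2C. Cdkn1c no longer reached the limit after rescaling. The imprinted genes Dlk1 and Peg3 differed by 0.04 and 0.11.

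Wnt11, a noncanonical WNT ligand, had 3.10 TPM in ALL, 44.3 in 2C+F10, 19.0 in 2C+MTG, 10.1 in 2C+VC and 71.6 in 2C, a difference of -4.15. It was lowest in ALL, low in 2C+VC and highest in 2C, with 2.43 and 0.85 TPM in the numbered ALL libraries. None of the other 10 measured genes of the WNT ligand and receptor list was counted, which makes 9.09% lower. Its median of -0.20, or 0.04 relative to the median gene, changed sign after rescaling. Among 8 measured WNT targets, Nkd1, a feedback inhibitor, was higher by 1.14, and Tnfrsf19 and Znrf3 were lower, Znrf3 short of the limit after rescaling. That is 37.5% in either direction against 12.3% of all genes, with a median 0.38 above the median gene. Nkd1 was at 8.90 and 8.92 TPM in the numbered ALL libraries and 7.30 TPM in 2C. Tnfrsf19, a receptor of the TNF family, had 3.25 TPM in ALL, 27.9 in 2C+F10, 8.90 in 2C+MTG, 6.55 in 2C+VC and 32.6 in 2C, a difference of -2.99. Axin2, the most general WNT target, differed by 0.45, with 15.9 TPM in ALL and 11.4 in 2C.

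Notch genes were lower for 4 of 8 measured (50%) and higher for 0, of 13 listed, with a median of -1.10, or -0.86 relative to the median gene. The ligand Jag1 had 2.26 TPM in ALL, 9.09 in 2C+F10, 3.35 in 2C+MTG, 7.52 in 2C+VC and 9.49 in 2C, and the ligand Dll4 had 1.58 TPM in ALL, 5.58 in 2C+F10, 1.82 in 2C+MTG, 3.82 in 2C+VC and 5.48 in 2C. Their differences were -1.69 and -1.33, with ALL and 2C+MTG low in both. The receptor Notch3 and the glycosyltransferase Lfng, which tunes Notch receptors, differed by -1.52 and -1.35. Hes1, the most abundant Notch target in the list, had 43.2 TPM in ALL, 63.4 in 2C+F10, 42.6 in 2C+MTG, 50.1 in 2C+VC and 59.8 in 2C, a difference of -0.46 that was not counted. The lower Notch genes were of low abundance, under 14 TPM in 2C. Ptch1, the Hedgehog receptor and target, differed by -1.26, which no longer reached the limit after rescaling, and the ligand Shh by -0.74. Ptch1 was the 1 lower gene of 3 measured in the Hedgehog list (33.3%), where 0 were higher.

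Simple epithelial keratins and genes of the transitional state between type 2 and type 1 cells were lower for 5 of 13 measured (38.5%) and higher for 1 (7.69%), of 14 listed, with a median of -0.85, or -0.61 relative to the median gene. Krt19 had 78.4 TPM in ALL, 410.0 in 2C+F10, 101 in 2C+MTG, 297 in 2C+VC and 289.6 in 2C, a difference of -1.87. Krt8 had 183 TPM in ALL, 655 in 2C+F10, 265 in 2C+MTG, 420.4 in 2C+VC and 459.9 in 2C, a difference of -1.32. Anxa1, a phospholipid-binding protein, had 75.4 TPM in ALL, 524 in 2C+F10, 90.5 in 2C+MTG, 377 in 2C+VC and 338 in 2C, a difference of -2.15. ALL and 2C+MTG were low in these genes and 2C+F10 was the highest. Krt18, the partner of Krt8, differed by -0.85 and was not counted, and Krt7 differed by -0.10. Krt23 was higher, with 14.4 TPM in ALL, 6.58 TPM in 2C+VC and values below 1 TPM in 2C+F10 and 2C+MTG, and it was listed at 0 in 2C. Cdkn1a, a p53 target that halts the cell cycle, differed by -1.40, with 51.6 TPM in ALL, 175 in 2C+F10, 54.4 in 2C+MTG, 127 in 2C+VC and 138 in 2C.

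Of 16 lineage transcription factors of the lung, all measured, 2 were higher and 2 lower, which is 25% in either direction against 12.3% of all genes. Nkx2-1, the lung epithelial master factor, had 275 TPM in ALL, 328 in 2C+F10, 287 in 2C+MTG, 377 in 2C+VC and 293 in 2C, a difference of -0.09, and the forkhead factors Foxa1 and Foxa2 differed by -0.16 and -0.60. Beside Cebpa, the ETS factor Elf5 was higher, with 101 TPM in ALL, 47.4 in 2C+F10, 21 in 2C+MTG, 117 in 2C+VC and 31.8 in 2C and a difference of 1.63. Elf3, an ETS factor of differentiated epithelium, and Foxp2, a forkhead factor of the distal epithelium, were lower by differences of -1.31 and -1.27, and Foxp2 no longer reached the limit after rescaling. The list's median of -0.05, or 0.19 above the median gene, changed sign with rescaling.

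**Figure D4:**
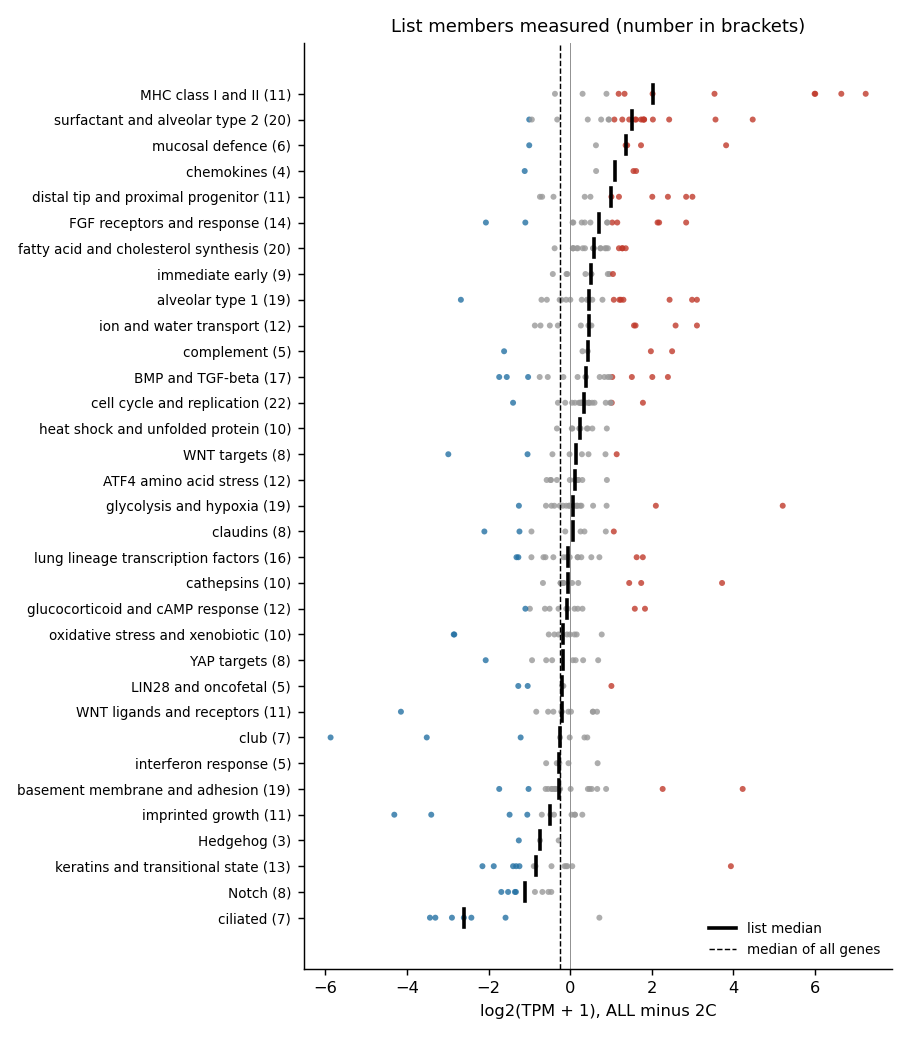
Difference of log2(TPM + 1), ALL minus 2C, for each measured member of the gene lists with 3 or more measured members, higher ones in red, lower ones in blue and uncounted ones in grey. The thick bar is the list's median and the dashed line the median of all genes, -0.24. MHC genes lie furthest to the right with a median of 2.02, and ciliated genes furthest to the left with -2.60.

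Of 22 cell cycle genes, all measured, 2 were higher, 1 was lower and 19 were not counted. That is 13.6% in either direction, near the 12.3% of all genes. The median was 0.33, or 0.57 above the median gene. Mki67, a marker of cycling cells, had 26.8 TPM in ALL, 7.20 in 2C+F10, 37.5 in 2C+MTG, 10.7 in 2C+VC and 21.9 in 2C, a difference of 0.28, with 2C+F10 and 2C+VC low. Ccnb2, a mitotic cyclin, had 19.7 TPM in ALL, 3.79 in 2C+F10, 12.2 in 2C+MTG, 9.09 in 2C+VC and 5.02 in 2C, a difference of 1.78. Lists of stress genes differed. Oxidative stress and xenobiotic genes had 2 lower of 10 measured (20%). Immediate early genes had 1 higher of 9 measured (11.1%), Zfp36 at a difference of 1.05. Of 12 measured ATF4 targets and 10 measured heat shock and unfolded protein genes 0 were counted in either direction, with medians 0.36 and 0.49 above the median gene.

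In lipid metabolism 4 of 20 measured synthesis genes were higher (20%) and 0 lower, of 21 listed, with a median of 0.58, or 0.82 above the median gene. Apart from Scd1 these were genes of the cholesterol pathway. Fdps, the farnesyl diphosphate synthase, had 245 TPM in ALL, 146 in 2C+F10, 131 in 2C+MTG, 195 in 2C+VC and 100.1 in 2C, a difference of 1.28. Dhcr7, a late enzyme of the pathway, had 60.5 TPM in ALL and 22.9 in 2C, a difference of 1.36. The glucose transporter Slc2a3 had 63.5 TPM in ALL, 0.11 in 2C+F10, 27.8 in 2C+MTG, 2.99 in 2C+VC and 0.74 in 2C, a difference of 5.21, in which ALL and 2C+MTG were high. Of 19 measured genes of glycolysis and hypoxia 2 were higher, Slc2a3 and the phosphofructokinase Pfkp at a difference of 2.10, and 1 was lower, which is 10.53% and 5.26%.

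Matrix and protease genes showed single large differences. Nid2, a basement membrane linker protein, had 66.7 TPM in ALL, 2.86 in 2C+F10, 48.5 in 2C+MTG, 29.3 in 2C+VC and 2.61 in 2C, a difference of 4.23. Col18a1, a basement membrane collagen, had 340.0 TPM in ALL, 27.1 in 2C+F10, 265 in 2C+MTG, 90.6 in 2C+VC and 69.8 in 2C, a difference of 2.27. ALL and 2C+MTG were highest of the 5 libraries in both. In the numbered ALL libraries Col18a1 was at 65.0 and 103 TPM, on either side of 2C, and Nid2 at 26.5 and 16.7 TPM. Fn1, fibronectin, was lower, with 7.38 TPM in ALL, 69.7 in 2C+F10, 14.9 in 2C+MTG, 29.1 in 2C+VC and 26.9 in 2C and a difference of -1.74, and the numbered ALL libraries had 25.9 and 7.05 TPM. The list had 19 of 23 measured, 2 higher and 2 lower, which is 21.1% in either direction against 12.3% of all genes. Its median of -0.27, or -0.03 relative to the median gene, changed sign with rescaling. Ctsz, a lysosomal cysteine protease, had 136 TPM in ALL, 11.9 in 2C+F10, 8.56 in 2C+MTG, 147 in 2C+VC and 9.34 in 2C, a difference of 3.72, with ALL and 2C+VC high. The aspartic protease Ctse differed by 1.74, and here ALL and 2C+MTG were high, with 24 TPM in ALL, 4.74 in 2C+F10, 46.8 in 2C+MTG, 9.07 in 2C+VC and 6.47 in 2C. The cathepsin list gave 3 higher of 10 measured (30%), with a median that also changed sign and lay 0.19 above the median gene.

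The xenobiotic enzymes Cyp1a1 and Cyp1b1, targets of the aryl hydrocarbon receptor, were lower. Cyp1b1 had 6.13 TPM in ALL, 95.7 in 2C+F10, 8.25 in 2C+MTG, 16.6 in 2C+VC and 50.0 in 2C, a difference of -2.84 with 44.3 and 15.7 TPM in the numbered ALL libraries, and Cyp1a1 was listed at 0 in ALL, 2C+MTG and 2C+VC, with 59.2 TPM in 2C+F10 and 6.22 TPM in 2C. The other 8 measured genes of oxidative stress and xenobiotic response were not counted, which makes 20% lower. F3, tissue factor, had 12.1 TPM in ALL, 64.7 in 2C+F10, 14.4 in 2C+MTG, 59.0 in 2C+VC and 53.9 in 2C, a difference of -2.07, and was the 1 counted gene of 8 measured YAP targets. Sgk1, a kinase induced by glucocorticoids, had 34.7 TPM in ALL, 17.3 in 2C+F10, 10.4 in 2C+MTG, 17.1 in 2C+VC and 9.01 in 2C, a difference of 1.84, and Dusp1, also induced by them, differed by 1.59. The glucocorticoid and cAMP list had 2 genes higher (16.7%), 1 lower (8.33%) and 9 not counted of 12 measured. Its median of -0.08, or 0.16 above the median gene, changed sign after rescaling. Dusp1 was at 101 and 88.6 TPM in the numbered ALL libraries and 66.0 TPM in 2C. Sik1, a kinase induced by cAMP, was lower by a difference of -1.10, short of the limit after rescaling. The regulators of complement Cd59a and Cd55 differed by 2.50 and -1.62. Complement genes had 2 higher (40%) and 1 lower (20%) of 5 measured. Cd55 was at 61.9 and 58.9 TPM in the numbered ALL libraries and 54.8 TPM in 2C, so its low value was not seen in them. Of the claudins of tight junctions, Cldn18 was higher by 1.07, and Cldn8 and Cldn4 were lower at differences of -2.10 and -1.24, Cldn4 short of the limit after rescaling. Cldn8 was at 18.3 and 5.91 TPM in the numbered ALL libraries, on either side of the 8.31 TPM of 2C.

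Among the 12 largest differences in each direction, with the same names left out, and outside the lists, Hdc, the enzyme that makes histamine, had 165 TPM in ALL, 2.83 in 2C+F10, 29.4 in 2C+MTG, 27.9 in 2C+VC and 1.10 in 2C, a difference of 6.30. Pla2g7, a secreted phospholipase that inactivates platelet-activating factor, had 40.1 TPM in ALL, 1.77 in 2C+F10, 8.06 in 2C+MTG, 2.37 in 2C+VC and 0.17 in 2C, a difference of 5.13. Cpn1, the catalytic subunit of carboxypeptidase N, had 51.7 TPM in ALL, 0.83 in 2C+F10, 12.3 in 2C+MTG, 7.18 in 2C+VC and 0.69 in 2C, a difference of 4.96. In the 3 genes ALL was highest and 2C+MTG second among the 5 libraries, and the numbered ALL libraries lay at 67.9 and 83.7 TPM, 11.7 and 8.22 TPM and 6.93 and 11.7 TPM. Alb, albumin, in a list of stomach, gut and liver genes, had 34.2 TPM in ALL, 1.27 in 2C+F10, 10.8 in 2C+MTG, 5.66 in 2C+VC and 2.64 in 2C, a difference of 3.28, and was the 1 measured member of 16.

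Most other members of these 24 differences were short RNAs or genes with near-identical copies, whose values are uncertain. Rpsa-ps10, a processed pseudogene of a ribosomal protein gene whose name is not among those left out, had 1358 TPM in ALL, 0.82 in 2C+F10, 2.19 in 2C+MTG, 0 in 2C+VC and 2.65 in 2C, and was listed at 0 in both numbered ALL libraries. Tpm3-rs7, a tropomyosin gene copy, had 2.26 TPM in ALL, 212 in 2C+F10, 99.6 in 2C+MTG, 221 in 2C+VC and 211 in 2C. Dynlt1-ps1, a pseudogene of a dynein light chain, was listed at 0 in ALL and 2C+VC, with 38.3 TPM in 2C+F10, 24.8 TPM in 2C+MTG and 22.3 TPM in 2C, and stood at 155 and 53.7 TPM in the numbered ALL libraries. Rps2, a ribosomal protein gene with many pseudogenes, had 80.7 TPM in ALL, 2214 in 2C+F10, 2152 in 2C+MTG, 1836 in 2C+VC and 2109 in 2C, a difference of -4.69. In Rps2 the ALL library stood far below the other 4, and the numbered ALL libraries differed from each other, at 979 and 90.1 TPM. Of genes whose longest transcript is under 200 nucleotides, 225 were above 0 in ALL, 90 to 117 in the single additions and 169 in 2C, and 15 and 19 in the numbered ALL libraries. They made up 60 of the 534 higher genes and 81 of the 812 lower genes. Snora34, a small nucleolar RNA, is an example, with 48.6 TPM in ALL, 25.0 TPM in 2C+MTG and 0 in the other libraries, the numbered ones included.

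The single additions gave part of the changes between ALL and 2C. A change was counted as given by an addition when that library differed from 2C by 1 or more in the same direction. All these comparisons share the 2C library, so a value that is off in 2C enters each of them. On their own, 2C+F10 had 336 higher genes (3.08%) and 307 lower (2.82%) against 2C, 2C+MTG had 280 (2.59%) and 532 (4.93%), and 2C+VC had 642 (5.81%) and 420 (3.8%). Of the 534 genes higher in ALL, 2C+VC gave 275 (51.5%), 2C+MTG gave 157 (29.4%) and 2C+F10 gave 80 (15.0%). Of the 812 lower genes, 2C+MTG gave 318 (39.2%), 2C+VC gave 232 (28.6%) and 2C+F10 gave 140 (17.2%). Genes given by all 3 additions numbered 22 higher and 90 lower. Genes given by 2C+VC alone numbered 146 higher and 60 lower, by 2C+MTG alone 63 and 150, and by 2C+F10 alone 9 and 14.

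No single addition gave 580 of the 1346 changes (43.1%), which were 180 of the higher genes (33.7%) and 400 of the lower ones (49.3%). Of these, 98 higher and 119 lower genes had no single addition at 0.5 or more in their direction. The protein-coding ones were smaller changes than those given, with a median absolute difference of 1.25 against 1.77 among the higher genes and 1.17 against 1.69 among the lower ones. The rule itself favours this, since a change just past the limit in ALL can easily fall short of the same limit in an addition. At an absolute difference of 2 or more, 78 of 245 higher genes and 14 of 202 lower genes were not given. Short transcripts under 200 nucleotides made up 40 of the 180 higher genes not given and 2 of the 400 lower ones. The use of 2C as the reference shapes this split. A short RNA listed only in 2C, such as Rnu5g at 45.8 TPM, counts as lower and as given by every addition. One listed only in ALL, such as Snora30 at 21.9 TPM, counts as higher and as not given. The counts of given and not given genes include such RNAs. In 39 of the higher genes and 48 of the lower ones, a single addition differed from 2C by 1 or more in the opposite direction. Counted against each of the other 4 libraries, ALL was at least 1 above all of them in 131 genes and at least 1 below all of them in 82.

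Xdh (chr17:73883895-73950196), xanthine oxidoreductase, the last enzyme of purine breakdown, had the largest difference among the higher protein-coding genes that no addition gave. It had 66.6 TPM in ALL, 1.11 in 2C+F10, 1.82 in 2C+MTG, 1.28 in 2C+VC and 1.14 in 2C, a difference of 4.98, so that ALL stood alone and the other 4 libraries lay between 1 and 2 TPM. The numbered ALL libraries had 32.7 and 4.82 TPM. Tfpi, the inhibitor of tissue factor, had 10.8 TPM in ALL, 0.95 in 2C+F10, 0 in 2C+MTG, 0.19 in 2C+VC and 0.16 in 2C, a difference of 3.34, with 4.12 and 0 TPM in the numbered libraries. Cfi, the complement factor I protease, had 24.5 TPM in ALL, 0.41 in 2C+F10, 7.02 in 2C+MTG, 2.03 in 2C+VC and 5.47 in 2C, a difference of 1.98, and was below 2C in 2C+F10 and 2C+VC. The numbered libraries had Cfi at 1.93 and 7.17 TPM, on either side of 2C. Ulbp1, a stress ligand of the NKG2D receptor, had 30.2 TPM in ALL, 2.22 in 2C+F10, 9.36 in 2C+MTG, 8.06 in 2C+VC and 4.49 in 2C, a difference of 2.50, with 2C+MTG and 2C+VC short of the limit at 0.92 and 0.72. Htra3, a secreted serine protease, and M1ap, a meiosis gene, differed by 2.56 and 2.76, but the 2C+VC library lay just below the limit for each, at 0.9955 and 0.9907. The numbered libraries had 0.99 and 0.92 TPM for Htra3 and 0.62 and 1.03 TPM for M1ap, where neither was high. Sgk1, Dhcr7 and Fdps were also not given, and for each of them 2C+VC lay between 0.7 and 1.

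Values of 2 other genes in this set are uncertain. Cwc22, a splicing factor gene in a segment that is duplicated in some mouse strains, had 882 TPM in ALL, 26.1 in 2C+F10, 30.3 in 2C+MTG, 16.8 in 2C+VC and 30.8 in 2C, with 29.4 and 19.4 TPM in the numbered ALL libraries, so the unnumbered library stood alone among 7. H2-T22, a class I-like gene of a family with close copies, had 17.3 TPM in ALL, 0.89 in 2C+F10, 0.27 in 2C+MTG, 1.13 in 2C+VC and 1.11 in 2C, with 2.35 and 4.15 TPM in the numbered libraries.

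Among the lower genes that no addition gave, Sprr1a, a cornified envelope protein, had 0.68 TPM in ALL, 21.8 in 2C+F10, 9.59 in 2C+MTG, 14.5 in 2C+VC and 17.8 in 2C, a difference of -3.48, with 5.51 and 5.38 TPM in the numbered libraries. Ahcy, the enzyme that clears S-adenosylhomocysteine, had 3.53 TPM in ALL, 16.2 in 2C+F10, 15.9 in 2C+MTG, 18.0 in 2C+VC and 19.1 in 2C, a difference of -2.15. For Ahcy the numbered ALL libraries were at 28.2 and 22.0 TPM, above 2C, so the low value was not seen in them. Mtap, which salvages methionine from methylthioadenosine, had 4.37 TPM in ALL, 19.6 in 2C+F10, 11.0 in 2C+MTG, 13.3 in 2C+VC and 18.0 in 2C. Its level in the numbered libraries was 29.7 and 17.6 TPM, near or above 2C. St6gal1, a sialyltransferase, had 7.48 TPM in ALL, 34.4 in 2C+F10, 19.5 in 2C+MTG, 23.2 in 2C+VC and 34.6 in 2C, a difference of -2.07, with 11.9 and 11.1 TPM in the numbered libraries, below each of the 4 others in its table. Ass1, the argininosuccinate synthase of arginine synthesis, had 1.86 TPM in ALL, 36.9 in 2C+F10, 8.94 in 2C+MTG, 6.70 in 2C+VC and 9.80 in 2C, a difference of -1.92, and was higher than 2C in 2C+F10.

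**Figure D5:**
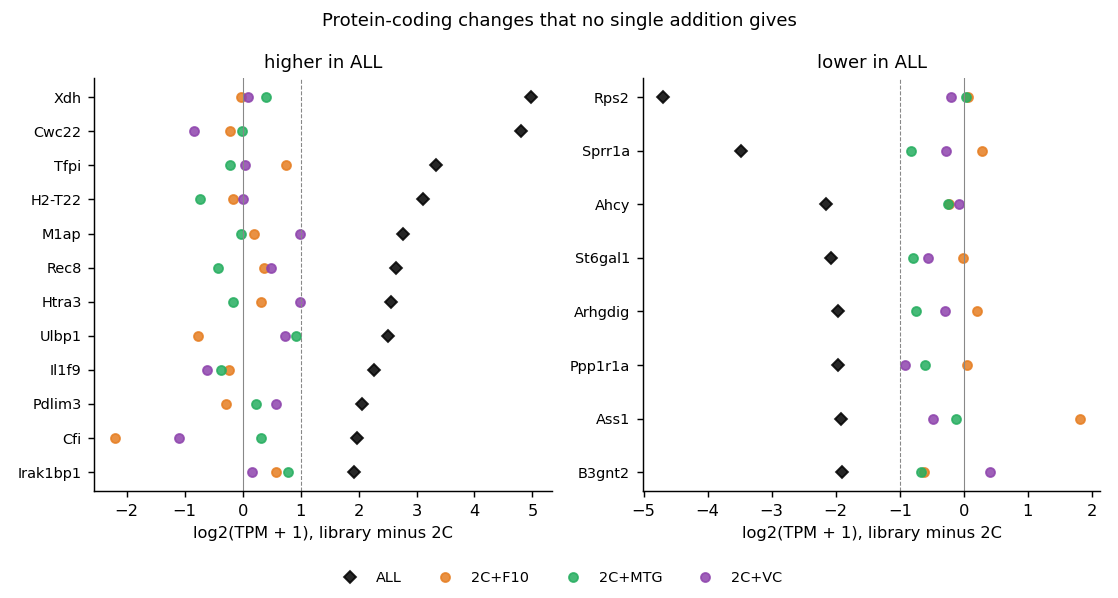
Difference of log2(TPM + 1) from 2C, for ALL (diamonds) and the single additions (circles), in the 12 higher and 8 lower protein-coding genes with the largest differences that no single addition gives. The dashed line is the limit of 1. The diamonds lie beyond it and the circles do not pass it in that direction, with Xdh at 4.98 and Rps2 at -4.69, while Cfi and Ass1 show circles past 1 in the opposite direction.

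Markers of other cell types were low in both libraries, apart from single genes. Basal, goblet and neuroendocrine cell lists had 0 genes measured at 5 TPM in ALL or 2C, and so had the erythroid and neural lists. Trp63, the basal cell factor, stood at 0.03 TPM in ALL and was listed at 0 in 2C. The 13 mesenchymal markers summed to 31.5 TPM in ALL and 28.5 TPM in 2C, most of it Vim and Tagln, with Col1a1 at 0.37 TPM in ALL and 0.87 TPM in 2C. Tagln, an actin-binding protein of smooth muscle, was lower in ALL, with 2.92 TPM in ALL, 13.8 in 2C+F10, 1.77 in 2C+MTG, 22.4 in 2C+VC and 10.46 in 2C. The sum was 139 TPM in 2C+F10 and 142 and 11.3 TPM in the numbered ALL libraries, and Col3a1 was at 54.4 TPM in 2C+F10 and 0 in ALL. The part of these cells in the levels of 2C+F10 was not tested. The 8 endothelial markers summed to 17.5 TPM in ALL and 10.6 TPM in 2C, most of it from Esam, with Emcn at 0 in both and Cdh5 at 0 in ALL. Msln, a mesothelial glycoprotein, was lower in ALL, with 4.57 TPM in ALL, 58.1 in 2C+F10, 8.18 in 2C+MTG, 37.9 in 2C+VC and 25.8 in 2C, and was the 1 measured member of its list of 5.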

How the data were processed

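Per the labels, organoid RNA was isolated with TRIzol, turned into libraries with a VAHTS kit for mRNA and read on a NovaSeq instrument. The authors deposited TPM per gene. Per the submitters' processing notes, RSEM, Bowtie2 and the mm10 genome were used, with versions not given in the sources used here. The values come from 2 of 5 tables, and 1 column that matches no sample was not used. TPM keeps no depth, so depth and counting precision are unknown.

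Values were taken as log2(TPM + 1) and subtracted, library minus 2C. Genes with at least 5 TPM in the higher library were counted at a difference of 1 or more. No test was possible with 1 library a group. The count was checked on simulated data. Coordinates, types and lengths came from GENCODE M21 on GRCm38, which matched all 55260 symbols, and promoter sequences from RefSeq. Python 3.11.15, pandas 2.3.3, numpy 2.4.6 and matplotlib 3.10.9 were used.

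The 44 gene lists (590 genes) and the members were chosen with earlier results of these data known. Named genes are the 12 largest differences in each direction, the 8 largest in each direction that no single addition gives (left out of both are predicted, Rik, clone and mitochondrial names and names of Rps or Rpl with a number and -ps, which does not cover Rpsa-ps10), up to 4 counted members per list, and defining markers. Other list members, and the protein-coding changes not given by an addition, were named after their values were seen. A planned count of genes changed the same way in both numbered ALL libraries is not given, because it would share the 2C library. Alternatives varied the pseudocount, floor, scaling, limits, gene classes and reference.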

Additional observations from a re-analysis of the deposited data

How the results depend on the processing

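No paired analysis was possible because each condition is 1 library. As analysed, 534 genes were higher, 812 were lower and 580 changes were not given by a single addition. Without a floor, and equally with a floor of 1 TPM, the counts were 926 higher, 1500 lower and 975 not given. Median-ratio rescaling left 486 lower genes and 781 higher ones. A limit of 2 for each comparison gave 245 higher, 202 lower and 188 not given. With the numbered ALL library 1 in place of the unnumbered one, 1044 genes were higher and 994 changes were not given, and with number 2 the counts were 852 higher, 2253 lower and 2118 not given; these cross tables. Against the median of 2C and the 3 single additions 450 genes were lower. With a limit of 0.5 for the single additions 217 changes were not given, and 213 changes lay at least 1 beyond each of the 4 other libraries. Other settings, including pseudocounts of 0.5 and 0.1 TPM, a floor of 10 TPM and protein-coding genes only, kept each count within 1.5 times. Restricting to protein-coding genes and leaving out short transcripts were chosen after seeing the data. Of 138 named genes 127 kept direction and limit after rescaling and 11 fell short of the limit, and without mitochondrial genes 136 kept both and 2, Hmga2 and Bub1, fell short. Both other pseudocounts left all 138 on the same side. None changed sign under these 4 settings. Apart from what each setting's construction shows, the cause of these moves was not tested.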
